A study of Oryza sativa with 3 samples.

Results

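The microRNAs (miRNAs) described here are the rows of the deposited table numbered from miR5486 to miR5837. They were chosen by name, as the rows whose 4-digit number begins with 54 to 58, and made up 74 of the 367 rows, with 74 different sequences under 73 names. The range was proposed with the read counts in view, because its rows are mostly low and 1 of them stands far above the others, so the values below are descriptions and carry no test. The table held reads from young panicles of japonica rice (Oryza sativa) in 3 genotypes, namely the wild type and ld-1 and ld-2, which are mutants named for the loss of lodicules, the organs that open a grass floret. The series title ties the mutant spikelet, whose flowers stay closed, to a mutation of miR172b, and both mutants were untreated like the wild type. The labels give no age of the plants or stage of the panicles, do not say which plants grew in the greenhouse and which in the field, and do not say how many plants went into a library. Each genotype had 1 library, and the ratios below therefore compare 3 libraries with intervals for counting error, not for the spread between plants.

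MicroRNAs are short RNAs cut from a hairpin precursor by a Dicer-like enzyme and carried by an Argonaute protein to a matching transcript. In rice, miRNAs of 21 nt are mostly made by DCL1 and loaded into AGO1, which prefers a 5′ U and cuts or represses target mRNA. A class of 24-nt miRNAs, called long miRNAs, is made by DCL3 and loaded into AGO4-clade proteins, which prefer a 5′ A and direct DNA methylation. Numbers are given to miRNAs in the order of their registration, so neighbouring numbers mark no family. Many rice miRNAs with such high numbers are known from deep sequencing alone, and no target is given for most of them in the sources used here.

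Sequencing gave 116818 wild type, 140807 ld-1 and 66642 ld-2 reads of miRNAs. The 74 rows took 255, 273 and 399 of these reads, or 0.218% (exact 95% binomial interval 0.192% to 0.247%), 0.194% (0.172% to 0.218%) and 0.599% (0.542% to 0.660%). The shallowest library thus held the most reads of these rows. Their median was 4 reads over the 3 libraries together, against 5 for the other 293 rows, so a typical row of the range was about as low as a typical row of the table. The range held no abundant row, and its highest member ranked 49th among all rows, but it was proposed because its rows are mostly low.

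The sequences shown first are the row with most reads, the rows listed as higher in ld-2 (at least 2-fold above wild type, with an exact 95% interval that excluded 1) and the 24-nt rows with at least 10 reads, as the results turn on them. They are printed as the table gives them, 5′ to 3′ with T for U, and capitals mark the seed, bases 2 to 8, which leads pairing with a target.
miR5794: tGAGGAATcactagtagtcgt
miR5806: aCAGGCAAagacaatgacggc
miR5793: cGAGGACGagatacagtgcag
miR5519: tGGCAGAAgtactggacttag
miR5791: tTGCAGGAgactagagaccag
miR5797: tCGTGGGAtttatgcagttaa
miR5507: aATGAGAAtgatgacccggtg
miR5487: aAAGATGTgcatgtagttccg
miR5486: aGGGGCTTgcatattctacca
miR5822: tGTCTGCTcgatgtcaggttg
miR5488: tGAAGGCGactgatgatttca
miR5516a//miR5516b: cTCATTGCttcggtaggctgg
miR5820: tGGCAGAGattgatcgaggaa
miR5807: aGGAGGTCtggagagttatgtggc
miR5805: aCGAGTGAtggcggcgtatacctg
miR5814: aATCAAGTtaggaaccatgcaagt

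No 2 of the 74 rows shared a seed, whereas 79 of the other 293 rows shared theirs with another of those rows. The nearest row of the whole table was 6 to 10 edits away from each member, with a median of 8. None of the 74 was therefore a near copy of another row, unlike families in which reads can be divided between sequences that differ by a base. The name miR5516a//miR5516b stands for 2 registered copies with 1 sequence, and their reads cannot be told apart. Bases 2 to 7 were shared within 2 pairs of rows, miR5519 with miR5820, which both begin with T, and miR5798 with miR5802, which begin with C and A.

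A seed was shared with a row outside the range in 2 cases, shown for comparison.
miR5802: aTGGACTGtactttgtaaagcgga
miR319b: tTGGACTGaagggtgctccc
miR5505: gAGGATTCggtattgatcgcta
miR1425: tAGGATTCaatccttgctgct
The 24-nt miR5802 had 6 wild type, 0 ld-1 and 1 ld-2 reads, while miR319b, of a family that targets TCP transcription factors, had 513, 769 and 200. No read of miR5505 was counted in any library, and miR1425 had 156, 190 and 90. Both members of the range were thus far below the row that carries the same seed.

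By length, 52 of the 74 rows were of 21 nt, 11 of 24 nt, 10 of 22 nt and 1 of 20 nt. The 24-nt rows began with A in 9 of 11 cases (81.8%), against 35 of the other 70 rows of that length. The 21-nt rows began with T in 26 of 52 cases and the other 154 rows of that length in 79. They began with A in 30.8% of cases, against 16.9%. The range thus held, in its 24-nt rows, mostly the first base that AGO4-clade proteins prefer, and in its 21-nt rows a mix. Median GC content was 47.6% in the range and 47.6% in the other rows, and single members ran from 28.6% to 81.0%.

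**Figure D1:**
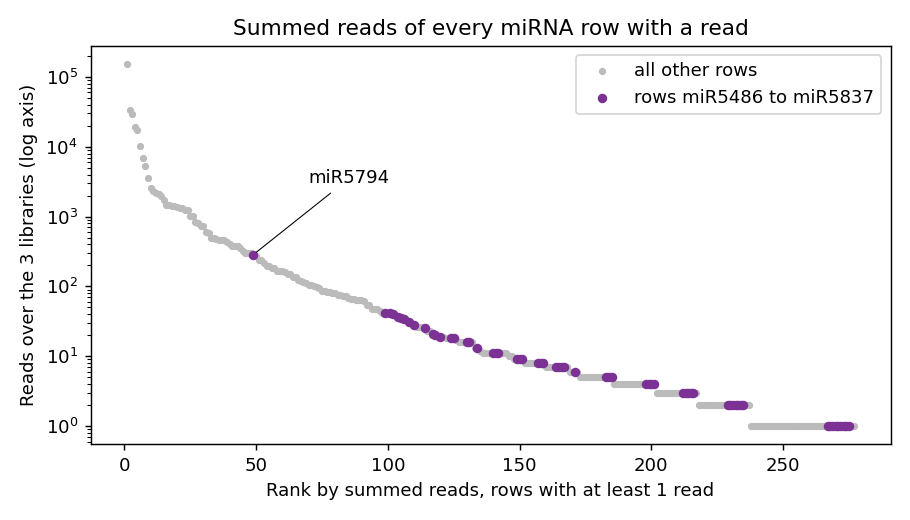
Reads summed over the 3 libraries (log axis) against rank, for every row with at least 1 read; purple points are the rows miR5486 to miR5837 and grey points all other rows. miR5794, with 286 reads at rank 49, lies apart from the rest of the range, of which the next row has 42 reads.

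Detection was sparse in the range and outside it. Of the 74 rows, 29 had a read in all 3 libraries, 17 in 2 of them, 14 in 1 and 14 in none. Of the other 293 rows, 76 had no read, a larger share than in the range. At least 10 reads over the 3 libraries were counted for 21 rows, at least 30 reads for 8 and at least 100 for 1. The wild type library had reads for 43 rows, ld-1 for 42 and ld-2 for 50. At the depth of ld-2, the numbers expected from the wild type and ld-1 libraries were 35.7 and 30.9. More rows of the range thus had a read in ld-2 although it was the shallowest library. Reads were found for 182 (wild type), 179 (ld-1) and 171 (ld-2) of the other 293 rows. Expected numbers at equal depth were not computed for those rows, so whether the range differs from them in this was not tested.

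The rows without any read were miR5492, miR5504, miR5526 and miR5801c of 21 nt, the 22-nt miR5502, miR5505, miR5523, miR5525, miR5536, miR5537 and miR5539a//miR5539b, and the 24-nt miR5790, miR5825 and miR5835. Thus 7 of 10 rows of 22 nt were not seen, against 4 of 52 of 21 nt. Outside the range, 40 of 154 rows of 21 nt had no read, and rows of 22 nt were not counted there. A floor of 3 counts, set for a count of 0 in ratios, equals 25.1 (wild type), 23.8 (ld-1) and 41.2 (ld-2) scaled RPM. The floor is a convention, since the exact 95% interval of 0 reads reached 30.9 in wild type and 50.6 in ld-2. Scaled RPM are reads per 1000000 after library sizes were scaled by TMM, the trimmed mean of M values, and 1 read was worth 8.37, 7.94 and 13.7 of them. In ld-2 alone, 7 rows had reads, namely miR5494 with 7, miR5506 with 4, miR5834 with 2, and miR5528, miR5529, miR5538 and miR5798 with 1 each. Another 4 rows had reads in wild type alone and 3 in ld-1 alone. Rows seen in a single library were not counted outside the range. miR5506, known for a part in floral meristem determinacy in rice, is named here after its value was seen, and its 4 reads lie just above the floor of 3 counts.

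miR5794 was set apart because it held at least 10% of the reads of the range. It had 89 wild type, 127 ld-1 and 70 ld-2 reads, or 34.9% (exact 95% interval 29.1% to 41.1%), 46.5% (40.5% to 52.6%) and 17.5% (13.9% to 21.6%) of the reads of the 74 rows. Its own scaled level differed by less than 2-fold between the libraries, the log2 ratio to wild type being 0.44 for ld-1 (95% interval for counting error 0.03 to 0.84) and 0.37 for ld-2 (-0.11 to 0.84). The smaller share in ld-2 thus went with more reads of the other rows. In summed reads miR5794 stood just under miR444d with 298, miR2871a//miR2871b with 299 and miR172b with 301. It stood above miR1878 with 277, a 20-nt miR172d sequence with 240 and miR319a with 237. The sum of miR172b was nearly all from 1 library, with 298 wild type, 2 ld-1 and 1 ld-2 reads.

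Summed over all 74 rows, without any read minimum, the scaled level was 2134 (wild type), 2168 (ld-1) and 5477 (ld-2) RPM. The sum in ld-2 was 2.57-fold that of wild type (log2 1.36, 1.13 to 1.59), whereas ld-1 was at 1.02-fold (log2 0.02, -0.23 to 0.27), a sign that changed with the scaling. Without miR5794 the reads were 166, 146 and 329, and ld-2 was 3.25-fold higher than wild type (log2 1.70, 1.43 to 1.98), with ld-1 at -0.26 (-0.59 to 0.07). For the other 293 rows the log2 value of ld-2 was -0.10 (-0.12 to -0.09). Among other rows with 10 to 50 reads it was 0.31 (0.03 to 0.58) over 34 rows, against 1.87 (1.55 to 2.20) over the 20 rows of the range in that class. Rows of the range with 1 to 9 reads, 39 in number, also summed higher in ld-2, with 49, 37 and 68 reads and a log2 ratio of 1.19 (0.63 to 1.75), against -0.23 (-0.70 to 0.23) for 91 other rows of that class. Read classes are set by reads that include those of ld-2, so a row can enter the upper class through ld-2 alone, and the class sums are given as descriptions that support nothing about the range.

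The length classes differed in this. The 21-nt rows had 213 wild type, 235 ld-1 and 380 ld-2 reads, and on the log2 scale ld-2 stood 1.55 (1.30 to 1.80) and ld-1 0.07 (-0.21 to 0.34) from wild type. Without miR5794 they had 124, 108 and 310, and ld-2 was 4.10-fold higher than wild type (log2 2.04, 1.73 to 2.35). The 24-nt rows had 40, 34 and 16 reads, so that ld-2 was at -0.61 (-1.54 to 0.26) and ld-1 at -0.31 (-1.01 to 0.39). So the gain lay in the 21-nt rows, and the 24-nt sum did not differ beyond counting error unless miR5807 was left out. Without it, the 24-nt row with most reads, there were 26, 21 and 6 reads and a log2 ratio of -1.40 (-2.97 to -0.09) in ld-2. Of these reads miR5805 alone held 11, 10 and 0, and no sum without miR5805 was computed. Whether the other 24-nt rows were lower as a class was therefore not tested. Of the reads other than miR5794, the 24-nt rows took 24.1% (17.8% to 31.3%) of the wild type, 23.3% (16.7% to 31.0%) of the ld-1 and 4.86% (2.80% to 7.78%) of the ld-2 reads. Rows of 24 nt outside the range had 2161, 2506 and 1555 reads, with a log2 ratio of 0.24 (0.14 to 0.33) in ld-2. The 22-nt rows held 2, 1 and 3 reads and the 20-nt row, miR5809, 0, 3 and 0, too few to compare. The 22-nt row with most reads, miR5532, had 2, 0 and 1.

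**Figure D2:**
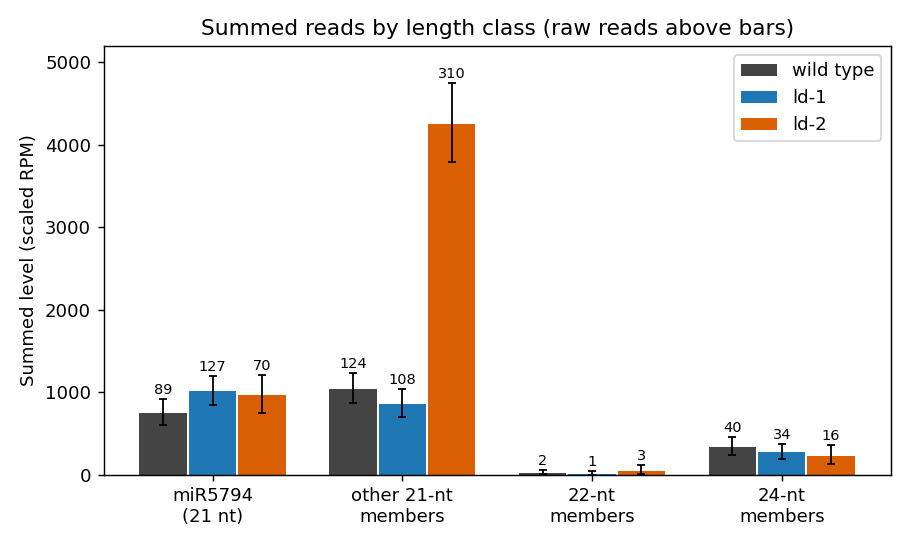
Summed level in scaled RPM of miR5794, the other 21-nt rows, the 22-nt rows and the 24-nt rows of the range in each library; error bars are exact 95% Poisson intervals for counting error and raw reads stand above the bars. The other 21-nt rows have 310 reads in ld-2 against 124 in wild type and 108 in ld-1, while the bars of miR5794 and of the 24-nt rows have overlapping intervals.

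Single rows were compared when they had at least 10 reads over the 3 libraries, which kept 21 of the 74 rows, 18 of 21 nt and 3 of 24 nt. The listing rule was the same in either direction. A low row can pass the minimum through the library in which it is high, so the counts of listed rows describe these 21 rows and support nothing about the others. In ld-2, 12 of 21 rows were listed higher than in wild type and 1 lower. Over all 147 rows of the table with at least 10 reads, these 21 included, the shares were 22.4% and 7.48%. Over the 54 rows with 10 to 50 reads, 20 of them of the range, the shares were 29.6% and 5.56%. Without the range they were 16.7% and 7.94% of 126 rows, and 11.8% and 5.88% of 34 rows. Among the 126 rows, 12 of the 21 listed higher were of miR2118. In ld-1, 1 row was listed higher and 0 lower than in wild type. The shares were 8.84% and 4.08% of the 147 rows, and 9.52% and 4.76% of the 126 other rows. The median log2 ratio of the 21 rows was 1.71 in ld-2, with 2 rows at their ratio to the floor, against 0.15 over all 142 rows with a ratio. In ld-1 it was -0.18 over the 17 rows with a ratio, against -0.06 over 141.

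The 12 rows listed higher in ld-2 were all of 21 nt and had 0 to 12 wild type, 1 to 10 ld-1 and 8 to 28 ld-2 reads. Their log2 ratios to wild type ran from 1.65 to 4.96. Together they had 55, 57 and 219 reads, of which the high ld-2 sum follows from the listing. No single row carried the gain of the 74 rows in ld-2, as the largest added 351 of 3342 scaled RPM. By first base 6 began with T, 4 with A and 2 with C.

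The row with most reads in ld-2 among them was miR5791. It had 4 wild type, 3 ld-1 and 28 ld-2 reads, so that ld-2 alone stood high. Relative to wild type it was at log2 3.52 (2.01 to 5.49) in ld-2 and -0.49 (-3.26 to 2.07) in ld-1. miR5793 had 8, 10 and 23 reads, with ld-2 at log2 2.24 (1.03 to 3.61) and with wild type and ld-1 close together. miR5806 had 11, 10 and 21 reads and a log2 ratio of 1.65 (0.53 to 2.85), the smallest of the 12. miR5797 was alike in this, with 6, 6 and 22 reads and a log2 ratio of 2.59 (1.24 to 4.18). These 4 rows had wild type and ld-1 counts that differed by at most 2 reads.

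miR5519 and miR5487 were lowest in ld-1. miR5519 had 12 wild type, 4 ld-1 and 24 ld-2 reads, which placed ld-1 at log2 -1.66 (-3.75 to 0.06) and ld-2 at 1.71 (0.66 to 2.85). miR5487 had 5, 2 and 18 reads, which placed ld-2 at log2 2.56 (1.08 to 4.35) and ld-1 at -1.40 (-4.79 to 1.21). Neither ld-1 interval excluded 0, but that of miR5519 did with unscaled RPM and with library sizes without the 5 most abundant rows, where the row was listed lower (-1.85 and -1.76). miR5820, which shares bases 2 to 7 with miR5519, had 2, 1 and 8 reads and a log2 ratio of 2.71 (0.39 to 5.99) in ld-2, a call that ended with a 99% interval. Of the other pair that shares bases 2 to 7, miR5798 had 0, 0 and 1 reads and miR5802 had 6, 0 and 1.

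Among the rows that were nearly absent from wild type, miR5507 had 1 wild type, 8 ld-1 and 19 ld-2 reads. It was the 1 row of the range listed higher in ld-1 (log2 2.92, 0.03 to 8.40), but not when unscaled RPM, library sizes without the 5 most abundant rows or a 99% interval was used. In ld-2 its log2 ratio was 4.96 (2.31 to 10.34). miR5516a//miR5516b had 1, 2 and 15 reads, and its log2 ratio was 4.62 (1.92 to 10.02) in ld-2. miR5486 had 0, 3 and 17 reads. Its level in ld-2 was 9.29-fold that of wild type with the floor of 3 counts set for the wild type library (lower 95% limit of the log2 ratio 2.76). With 0 or 1 read in wild type, the size of these ratios is poorly fixed. miR5822 had 2, 3 and 14 reads (log2 3.52, 1.40 to 6.70, in ld-2). miR5488 had 3, 5 and 10 reads (2.45, 0.49 to 4.95, in ld-2). The ld-1 intervals of 11 of the 12 rows included 0, miR5507 being the exception.

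**Figure D3:**
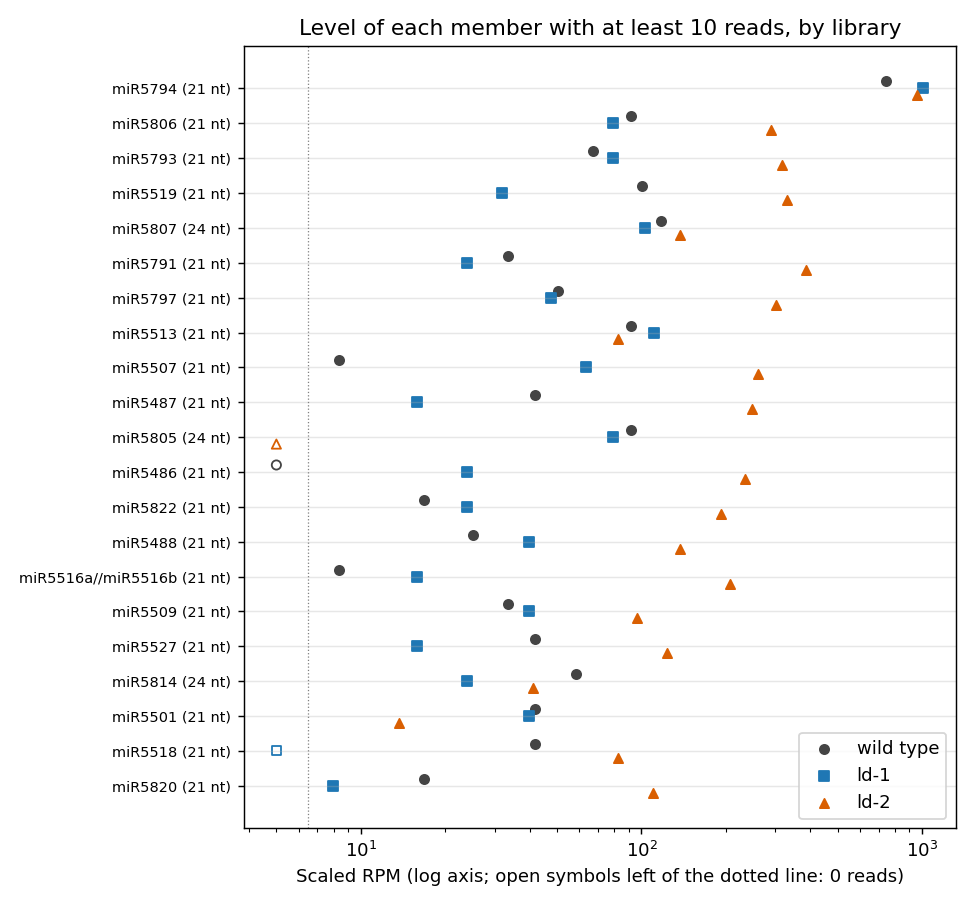
Scaled RPM (log axis) of the 21 rows with at least 10 reads in wild type (circles), ld-1 (squares) and ld-2 (triangles); open symbols left of the dotted line stand for 0 reads. The ld-2 triangle lies to the right of both other symbols in the 12 rows listed higher, while miR5794, miR5807 and miR5513 have the 3 symbols close together and miR5805 has no read in ld-2.

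Not all 21-nt rows followed. miR5513 had 11 wild type, 14 ld-1 and 6 ld-2 reads, and its log2 ratio was -0.16 (-1.88 to 1.40) in ld-2. miR5501 had 5, 5 and 1 reads (-1.61, -7.17 to 1.55). For these rows the depth of ld-2 cannot show a difference of moderate size. miR5509 had 4, 5 and 7 reads (1.52, -0.45 to 3.74), and miR5527 had 5, 2 and 9 (1.56, -0.17 to 3.49). miR5518 had 5, 0 and 6 reads (0.98). The last 3 had more reads in ld-2 than in wild type, with intervals that included 0.

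Of the 24-nt rows, miR5807 had 14 wild type, 13 ld-1 and 10 ld-2 reads, nearly level after scaling (log2 0.23 in ld-2, with an interval that included 0). miR5805 had 11, 10 and 0 reads and was the 1 row listed lower in ld-2. It was 2.24-fold lower than wild type with the floor of 3 counts set for the ld-2 library (upper 95% limit of the log2 ratio -0.61), and the call ended with a 99% interval. miR5814 had 7, 3 and 3 reads, too few for a difference (log2 -0.51, -3.09 to 1.62, in ld-2). The 24-nt rows thus held both the level row and the row without reads in ld-2. Below the minimum, miR5830 had 2, 5 and 1 reads and miR5802, given above, 6, 0 and 1.

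**Figure D4:**
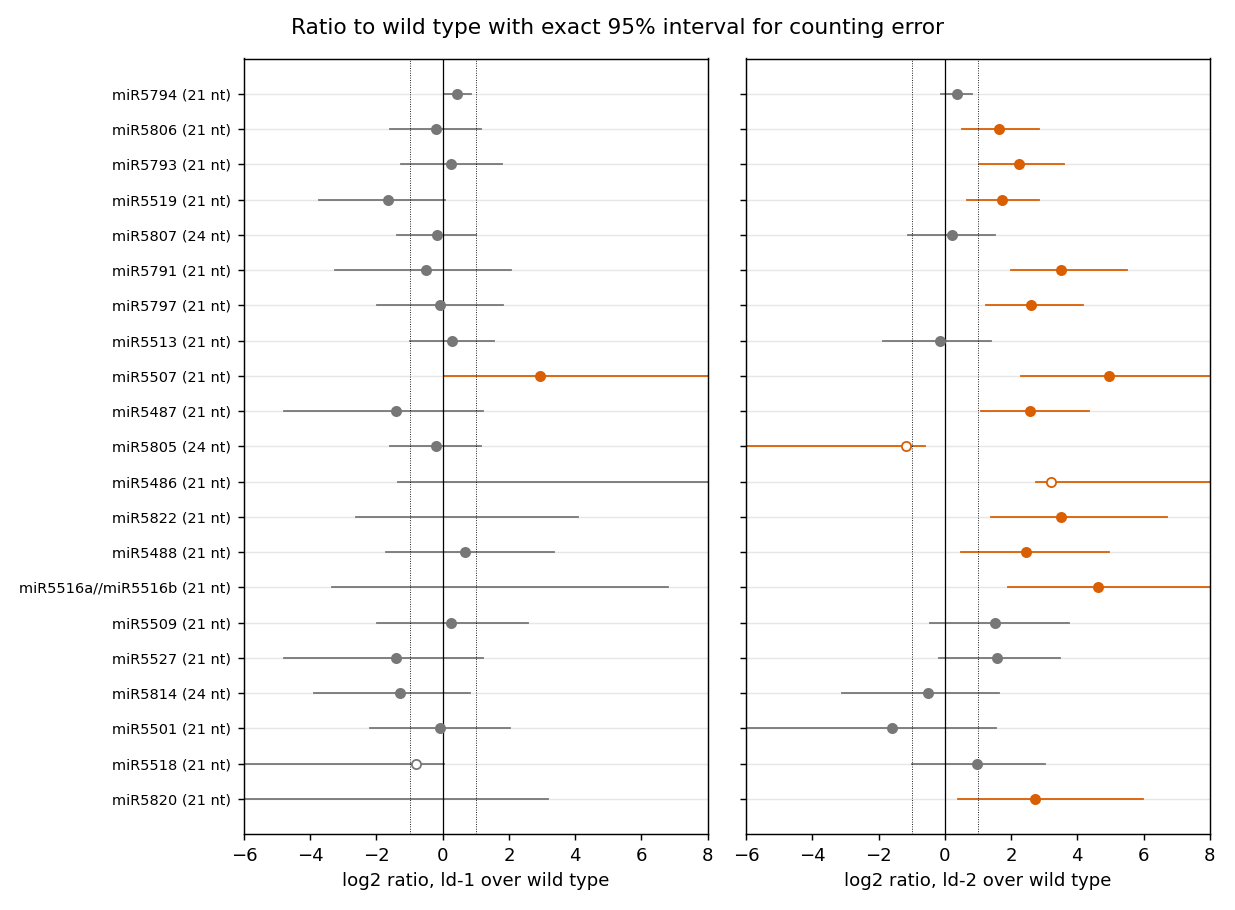
Log2 ratio to wild type of ld-1 (left) and ld-2 (right) for the 21 rows with at least 10 reads, with exact 95% intervals for counting error cut at the edges of the axis. Orange marks listed rows, and open circles are ratios in which a count of 0 was set to the floor of 3. A row without a circle has no ratio because both counts were at or under 3, and dotted lines mark a 2-fold ratio. In ld-2, 12 rows lie past the right dotted line in orange and miR5805 past the left one, while in ld-1 only miR5507 is orange, and both panels share the 1 wild type library.

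The mutants were also compared directly, which shares the ld-2 library with the comparison to wild type. In ld-2, 14 of 21 rows were listed higher than in ld-1 and 0 lower, against 20.4% and 4.08% of all 147 rows. Without the range, the shares were 12.7% and 4.76% of 126 rows, and 12 of the 16 listed higher were of miR2118. The 14 rows of the range were the 12 above with miR5527 and miR5518. For miR5791 the log2 ratio of ld-2 to ld-1 was 4.01 (2.32 to 6.37), for miR5487 it was 3.96 (1.90 to 7.11) and for miR5519 it was 3.37 (1.83 to 5.36). The smallest ratio between counts above 0 was that of miR5488 at 1.79 (0.11 to 3.69), whose call ended with DESeq2 size factors (1.60), without the 5 most abundant rows (1.68), with TMM over all rows (1.64) and with a 99% interval. miR5518 had 0 reads in ld-1 and 6 in ld-2. It was 3.46-fold higher in ld-2 with the floor of 3 counts set for the ld-1 library (lower 95% limit of the log2 ratio 1.03). Over all 74 rows the log2 ratio was 1.34 (1.11 to 1.56), and without miR5794 it was 1.96 (1.68 to 2.25). miR5805, with 10 reads in ld-1 and 0 in ld-2, was at -0.95 against the floor and was listed lower with DESeq2 size factors (-1.13).

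The numbers of the range fall into 2 runs, 41 rows from miR5486 to miR5540 and 33 from miR5788 to miR5837, a split made after the values were seen. The lower run had 80 wild type, 64 ld-1 and 171 ld-2 reads, and the upper run without miR5794 had 86, 82 and 158. Their log2 ratios to wild type in ld-2, 1.81 (1.42 to 2.21) and 1.59, had overlapping intervals, so both runs took part in the higher sum. At the edges of the range, miR5486 had 20 reads over the libraries and the 2 rows named miR5837 had 4 and 2. The nearest rows outside it, miR5340 below and miR6245b above, had 0 reads each.

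The miR2118 and miR2275 rows, known as triggers of phased siRNAs in rice anthers and taken as the check of the labelled panicle, were higher in the same library as the 21-nt rows of the range. They had 1293 wild type, 1208 ld-1 and 2880 ld-2 reads, so reproductive miRNAs were present in each library. On the log2 scale ld-2 stood 1.87 (1.77 to 1.97) above wild type and ld-1 at -0.17 (-0.29 to -0.06), and 12 of 13 rows, all of miR2118, were listed higher in ld-2, while miR2275 had too few reads to compare. With library sizes that leave out miR2118, the 74 rows had a log2 ratio of 1.48 in ld-2. The part of panicle stage or anther content in the higher reads of the range was not tested, and with 1 library per genotype these cannot be told apart from the genotype.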

How the data were processed

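Gel-purified RNA of 20 to 30 nt went into NEXTFlex libraries for an Illumina MiSeq, per the labels' protocols. The values the authors deposited are raw counts of reads for each mature sequence, per the file headers. The sources used here do not state trimming, mapping, counting rules or the miRNA release. Arms are not named, and genome positions were not analysed here.

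Libraries were scaled by TMM (edgeR 4.0.16, R 4.3.3) over rows with at least 30 reads, with factors of 1.02, 0.894 and 1.09 for wild type, ld-1 and ld-2. Ratios have exact 95% Clopper-Pearson intervals given both counts and the scaled sizes (Python 3.11.15, scipy 1.17.1). They cover counting error only, and reads are not independent molecules. With 1 library per genotype no p-value was computed. A count of 0 was replaced by a floor of 3 counts per library, and no ratio is given where both counts were at or under it. The interval method was checked on simulated Poisson counts at the scaled library sizes. These follow the counting model that the intervals assume, so the check cannot speak to spread between plants or to error in the scaling. Rows named are those listed in any comparison, those with at least 10% of the reads of the range, the 15 with most reads, and the highest of each length class; others are named with small groups. Members and lists were chosen with earlier results of these data known. Alternatives were other scalings (DESeq2 1.42.0 size factors among them), intervals, thresholds, minima and depth.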

Additional observations from a re-analysis of the deposited data

Results flagged for a closer look

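In 3 rows the mutants lay on opposite sides of wild type by at least 2-fold each while ld-2 was listed higher than ld-1, a difference that was not tested against the spread between plants and in which the 1 wild type library serves both. The log2 ratio of ld-2 to ld-1 was 3.37 for miR5519 (12 wild type, 4 ld-1 and 24 ld-2 reads), 3.96 for miR5487 (5, 2 and 18 reads) and 2.96 for miR5527 (5, 2 and 9 reads). In each of the 3 the interval of the ld-1 ratio to wild type included 0, and for miR5527 that of the ld-2 ratio did as well (-0.17 to 3.49).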

How the results depend on the processing

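Over the scalings, the 99% interval, the 1.5-fold threshold and the removal of each of the 5 rows with most reads in turn, the log2 ratio of all 74 rows stayed between 1.15 and 1.70 in ld-2 against wild type, and between 1.15 and 1.96 against ld-1, and each remained listed higher. In ld-1 it ran from -0.26 to 0.07. The 24-nt sum in ld-2 passed 2-fold without miR5807, at -1.40, with 11 of its 26 wild type reads from miR5805, which had 0 in ld-2. The count of rows listed higher in ld-2 was 10 to 14 against wild type and 11 to 17 against ld-1, except at a minimum of 30 reads, where 5 were listed in each and 8 rows were compared. The row listed lower in ld-2 against wild type was lost (0 rows) at a minimum of 30 reads or with a 99% interval. Against ld-1, 1 row was listed lower with DESeq2 size factors, without the 5 most abundant rows, with TMM over all rows (added after seeing the data), at 1.5-fold and with counts scaled to the shallowest library. In ld-1, 0 rows were listed higher with RPM of all miRNA reads, without the 5 most abundant rows, with a 99% interval, at a minimum of 30 reads and at equal depth, and 2 were listed lower with RPM of all miRNA reads, 1 without the 5 most abundant rows and 1 with no minimum. Setting rows apart at 5% in place of 10% of the reads left out the same 1 row. The scalings shifted the log2 ratios to wild type by -0.21 to 0.12 in ld-2 and by -0.19 to 0.03 in ld-1, and those of ld-2 to ld-1 by -0.19 to 0.29. No paired analysis was possible because each genotype had 1 library. For the same reason no library could be left out.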
